A study of Mus musculus with 11 samples.

Results

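The 10 genes of the interleukin-1 family and of inflammatory cell death described here, of 27998 genes counted, were chosen by name and followed through every macrophage (mac) library: the cytokine genes Il1a, Il1b, Il1rn and Il18, the inflammasome genes Nlrp3 and Casp1, and the necroptosis genes Casp8, Ripk1, Ripk3 and Mlkl. The single-cell RNA-seq libraries (10x Genomics, 3′ tags, unique molecular identifiers or UMIs) came from macs sorted out of mouse brain (microglia), colon (CMs), liver (Kupffer cells, KCs), lung (alveolar macs, AMs) and spleen (SMs). Each tissue had 1 library from CRE-negative Zeb2fl/fl littermates (WT) and 1 from Zeb2KO mice, which carried the same floxed alleles and a Cre transgene; an 11th library held KCs of CRE-negative Nr1h3fl/fl mice, in which Zeb2 was not floxed. Mice were on the C57Bl/6 background and used at 6 to 8 weeks of age, with males and females mixed. The labels name Fcgr1-cre for every Zeb2KO library, but the published methods give Clec4f-cre for the KCs and Itgax-cre for the AMs. Fcgr1-cre also acts in other immune cells, and the study describes macs that had kept an unrecombined allele in all organs other than the brain, so a Zeb2KO library other than that of microglia can hold both deleted and partly deleted cells. With 1 library per tissue and genotype there was no replicate error within a tissue: levels are given as counts per 1000000 UMIs (CPM) with exact Poisson 95% intervals, which cover counting error only.

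Interleukin-1α and interleukin-1β, encoded by Il1a and Il1b, act through the same receptor, and the product of Il1rn blocks that receptor. NLRP3 is a sensor that assembles an inflammasome, in which caspase-1 (Casp1) cleaves the precursors of interleukin-1β and interleukin-18. In necroptosis, RIPK1 and RIPK3 lead to phosphorylation of MLKL, which breaks the plasma membrane, while caspase-8 restrains this route; macs express all these genes to differing degrees, and the messenger level does not report on cleavage or phosphorylation.

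The libraries held 3097 to 7703 cell barcodes and 11133411 to 47400786 UMIs. A filter on depth, gene number and mitochondrial share removed 4.66% to 9.22% of the barcodes, and cells with at least 3 markers of another cell type, 0.315% (WT AMs) to 25.0% (WT SMs) of those left, were set aside. In WT and Zeb2KO libraries this was 0.565% and 3.58% of microglia, 17.8% and 11.9% of CMs, and 11.8% and 17.7% of KCs. AMs lost 0.315% and 0.829%, and SMs 25.0% and 18.1%. Plasmacytoid dendritic cell markers set aside 14 WT and 112 Zeb2KO microglia. That list still summed to 1374 and 890 CPM in the microglia kept. Endothelial markers set aside 283 WT and 608 Zeb2KO KCs. The remaining 2814 to 6971 cells per library gave 7614814 UMIs in WT SMs, the shallowest, to 37036286 in Zeb2KO AMs. Pairs of libraries shared 14 to 76 barcode sequences, the highest number between the WT and Zeb2KO AM libraries. Tissue markers stood where the labels put them: Tmem119 was at 2433 and 1890.0 CPM in WT and Zeb2KO microglia and at most 58.2 CPM elsewhere, and Clec4f was at 6063, 2115 and 4146 CPM in WT, Zeb2KO and Nr1h3fl/fl KCs and gave 1 UMI in all the other libraries together. Zeb2 itself was counted at 476 CPM in WT and 1756 CPM in Zeb2KO microglia and was higher in the Zeb2KO library of every tissue, with log2 ratios of 0.24 to 1.88; a 3′ tag can come from a recombined allele, so this level does not check the deletion.

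The promoters of the 3 interleukin-1 genes that differed most between genotypes, and of Nlrp3, are shown because the levels of these genes differed between genotypes in overlapping sets of tissues. The sequences are the 250 bases before the RefSeq start (GRCm38.p6), read 5′ to 3′ on the coding strand, with capitals for the letters TGANTCA (bound by AP-1) and GGGA and CC with any 4 bases between them (bound by NF-kB), each searched on both strands. Il1a lies at chr2:129309973-129310222 (minus strand), Il1b at chr2:129371140-129371389 (minus strand), the first of 3 Il1rn starts at chr2:24336610-24336859 (plus strand), and the first of 2 Nlrp3 starts at chr11:59541319-59541568 (plus strand).
Il1a: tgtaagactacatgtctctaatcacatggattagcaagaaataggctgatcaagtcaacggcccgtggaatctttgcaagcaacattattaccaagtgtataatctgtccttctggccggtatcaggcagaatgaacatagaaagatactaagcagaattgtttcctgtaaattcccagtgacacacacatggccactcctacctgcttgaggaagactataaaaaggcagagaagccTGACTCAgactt
Il1b: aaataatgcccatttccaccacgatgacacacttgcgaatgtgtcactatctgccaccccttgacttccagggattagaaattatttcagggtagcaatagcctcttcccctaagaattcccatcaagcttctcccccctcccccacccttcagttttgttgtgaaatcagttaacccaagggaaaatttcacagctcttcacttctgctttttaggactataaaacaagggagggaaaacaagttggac
Il1rn: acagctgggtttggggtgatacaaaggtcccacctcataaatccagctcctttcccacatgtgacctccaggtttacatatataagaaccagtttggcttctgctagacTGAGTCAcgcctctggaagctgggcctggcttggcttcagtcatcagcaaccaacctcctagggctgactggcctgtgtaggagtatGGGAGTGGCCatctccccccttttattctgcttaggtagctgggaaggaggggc
Nlrp3: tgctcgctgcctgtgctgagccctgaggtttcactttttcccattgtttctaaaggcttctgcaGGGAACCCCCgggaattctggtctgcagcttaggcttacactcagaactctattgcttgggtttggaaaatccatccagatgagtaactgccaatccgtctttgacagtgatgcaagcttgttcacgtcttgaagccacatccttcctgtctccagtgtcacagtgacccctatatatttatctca
The AP-1 letters began 12 bases before the start of Il1a and 141 bases before that of Il1rn, and the NF-kB letters 54 bases before the start of Il1rn and 186 bases before that of Nlrp3; these matches did not overlap. All 10 genes were matched to 14 promoter windows in all. The AP-1 letters were in 2 of the 14 windows, against 6.75% of all 32851 promoter windows of the same length. The NF-kB letters were also in 2 of the 14, against 17.6%. Neither was in a window of any other member. The E-box CACCTG, the sequence that ZEB proteins bind, or its reverse complement CAGGTG, was found in 0 of the 14 windows, against 17.2% of all windows; this says only that those letters are not in these 250 bases.

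Il1b (chr2:129364570-129371139, minus strand, GRCm38, GENCODE M21) was higher in the Zeb2KO library of 4 tissues and lower in that of the spleen. In microglia it was at 134 CPM in WT and 602 CPM in Zeb2KO cells, 4.498-fold higher (log2 ratio 2.16). AMs held 426 CPM in WT and 1128 CPM in Zeb2KO cells (log2 ratio 1.40), and CMs 774 and 1430.0 CPM (log2 ratio 0.88).

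KCs were the tissue with 2 controls. Il1b was at 172 CPM in Zeb2fl/fl and 186 CPM in Nr1h3fl/fl WT KCs, which differed by a log2 ratio of 0.11, and at 313 CPM in Zeb2KO KCs, with log2 ratios of 0.86 and 0.75 over the 2 controls. SMs had the highest WT level, 1074 CPM, and 629 CPM in Zeb2KO cells (log2 ratio -0.77). By level, the order among WT macs was SMs, CMs, AMs, KCs and microglia, whereas in Zeb2KO macs CMs and AMs stood above SMs. Each WT step was larger than the difference between the 2 control KC libraries. That difference comes from 1 pair of libraries in 1 tissue. It does not measure the spread between libraries of other tissues, here or for the genes below. An antisense gene, Il1bos, overlaps Il1b, and their reads cannot be told apart unless the counting used strand, which is not given in the sources used here.

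**Figure D1:**
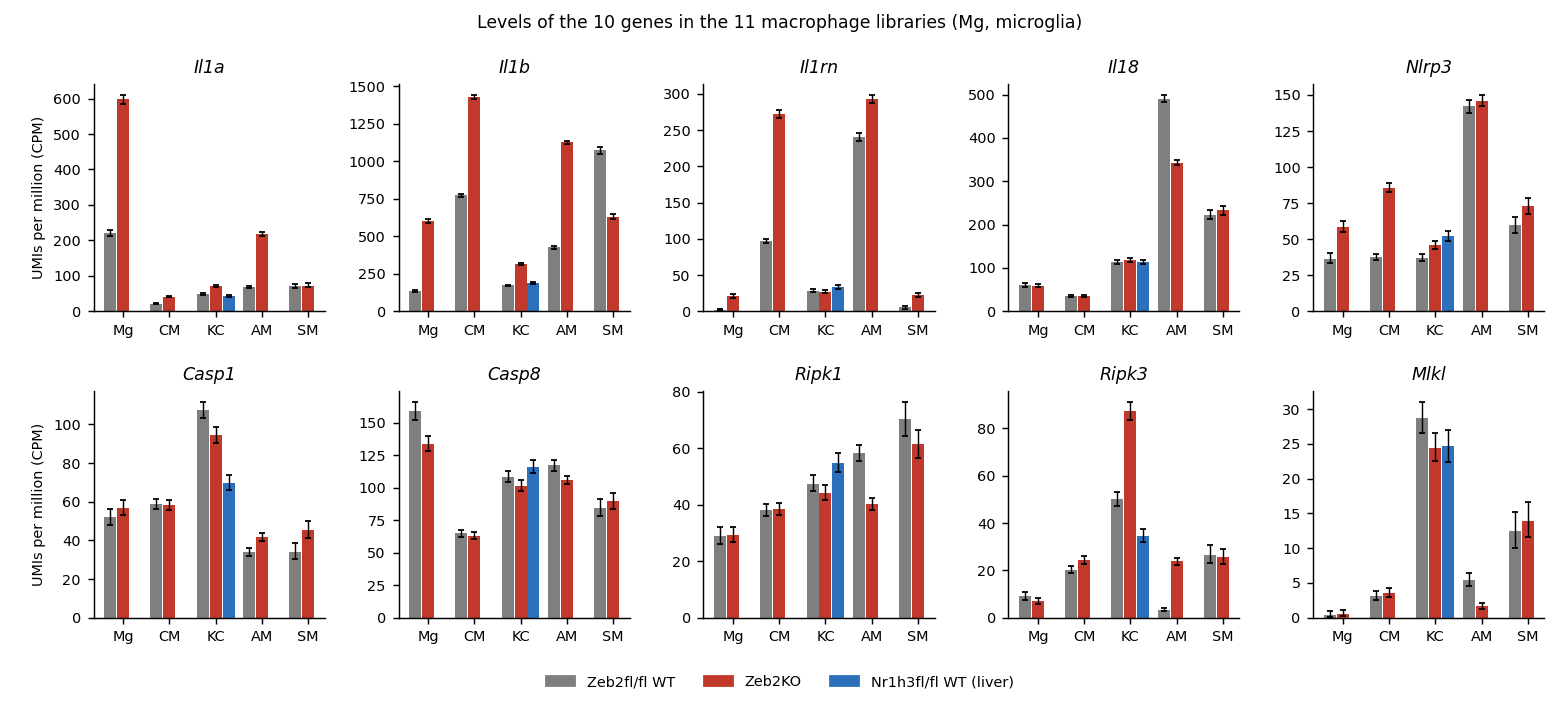
Levels of the 10 genes in CPM (linear axes from 0) in the 11 libraries, by tissue (Mg, microglia) and genotype; each bar is 1 library and error bars are exact Poisson 95% intervals (counting error only). The red Zeb2KO bar stands above the grey WT bar for Il1a in microglia, CMs, KCs and AMs (in SMs the 2 bars have overlapping intervals) and for Il1b in 4 tissues, with SMs the exception, while Il18, Casp8 and Ripk1 bars stand near each other in most tissues.

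Early-response genes that cell isolation can induce moved beside Il1b in part of the tissues. Of 13 such genes (among them Fos, Jun, Egr1, Atf3 and Nr4a1), 8 were at least 2-fold higher in Zeb2KO than in WT KCs (median log2 ratio 1.08), and 5 were at least 2-fold lower in Zeb2KO SMs (median -0.68), where Il1b was lower too. The 13 genes summed to 1413 CPM in Zeb2fl/fl, 657 CPM in Nr1h3fl/fl and 2746 CPM in Zeb2KO KCs, and to 9802 and 5576 CPM in WT and Zeb2KO SMs. The 2 control KC libraries differed in this sum while their Il1b levels were close.

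In microglia the same sum was 24389 CPM in WT and 18924 CPM in Zeb2KO cells (median log2 ratio -0.27, 1 of 13 higher), that is, it ran the other way from Il1b. CMs had 10327 and 10048 CPM, with 0 of 13 called and a median of -0.0038. In AMs 4 of the 13 were higher and 2 lower (median 0.34). The part of these genes in the Il1b differences was not tested. Neutrophils are another source of Il1b: of 9 neutrophil markers, which summed to 24.5 and 237 CPM in WT and Zeb2KO AMs, 0.98 and 97.0 CPM in microglia, 2.6 and 29.9 CPM in CMs, 3.0 and 11.7 CPM in SMs, and 2.0 and 2.5 CPM in KCs, Cxcr2 was at 178 CPM in Zeb2KO and 2.7 CPM in WT AMs and at 97.0 and 0.90 CPM in Zeb2KO and WT microglia, and Mmp8 at 57.3 and 21.8 CPM in Zeb2KO and WT AMs and at 27.0 and 1.80 CPM in Zeb2KO and WT CMs. Ly6g was at most 0.8 CPM and Retnlg at most 1.3 CPM in any library. Cells with at least 3 of these 9 markers had been set aside beforehand, so the levels are those of the cells left. The cells set aside in this way numbered 23 in Zeb2KO AMs and 1 in Zeb2KO CMs. The 7 monocyte markers summed to 7.5 CPM in WT and 37.3 CPM in Zeb2KO microglia and to 607 and 663 CPM in WT and Zeb2KO CMs; in AMs the sums of 5770.1 and 20671 CPM were mostly Chil3, which AMs themselves express, but Ly6c2, which marks classical monocytes, was also higher there, at 1.42 CPM in WT and 54.0 CPM in Zeb2KO AMs, and Ccr2 was at 3.3 and 10.9 CPM. Their part in the result was not tested. The sorts bear on these lists. CMs and SMs were sorted as negative for Ly6C, Ly6G and SiglecF, a gate against neutrophils and Ly6C+ monocytes among others. The gates the study gives for AMs (positive for CD11c and SiglecF), KCs (positive for Clec4F) and microglia (intermediate for CD45) name neither Ly6C nor Ly6G. All of these gates also required CD64 and F4/80, which neutrophils largely lack. How many neutrophils passed each sort was not measured, and their part in the Il1b levels was not tested.

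Il1a (chr2:129299610-129309972, minus strand) was higher in the Zeb2KO library of all 5 tissues, by log2 ratios of 0.05 to 1.68, except that the SM value turned to -0.02 when the 5% of cells with most UMIs were left out. Microglia, the macs with the highest WT level, had 220.1 CPM in WT and 598 CPM in Zeb2KO cells, 2.72-fold higher. AMs had 67.4 and 218 CPM, 3.23-fold higher, and CMs, the macs with the lowest WT level, 21.2 and 41.3 CPM, 1.95-fold higher.

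Zeb2KO KCs stood at 71.9 CPM, above both the Zeb2fl/fl (49.3 CPM) and the Nr1h3fl/fl (43.9 CPM) controls, with log2 ratios of 0.54 and 0.70. In SMs the levels of 70.4 and 72.7 CPM had overlapping counting intervals. WT AMs and WT SMs differed by less than the 2 control KC libraries did.

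Il1rn (chr2:24336853-24351494, plus strand), the antagonist, was at least 2-fold higher in the Zeb2KO library of microglia, CMs and SMs. CMs had 97.0 CPM in WT and 272 CPM in Zeb2KO cells, 2.80-fold higher (log2 ratio 1.478). In AMs, the WT macs with the highest level, it was at 241 and 293 CPM (log2 ratio 0.28), and in KCs at 28.3 CPM in Zeb2fl/fl, 33.1 CPM in Nr1h3fl/fl and 26.8 CPM in Zeb2KO cells (log2 ratios of -0.07 and -0.29).

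The gene was scarce in WT microglia (2.04 CPM, interval 1.32 to 3.01, from 25 UMIs) and in WT SMs (5.25 CPM, interval 3.75 to 7.15, from 40 UMIs). It was at 20.96 CPM in Zeb2KO microglia (interval 18.8 to 23.3) and 21.9 CPM in Zeb2KO SMs (interval 19.0 to 25.2), with log2 ratios of 2.85 and 1.88. These 2 levels lie just over the minimum of 20 CPM set for a call.

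Il18 (chr9:50554827-50581840, plus strand) did not share the pattern of its relatives. It was at 59.9 and 59.3 CPM in WT and Zeb2KO microglia, 35.1 and 34.8 CPM in CMs, and 223 and 233 CPM in SMs. KCs held 114 CPM in both controls and 119 CPM in Zeb2KO cells.

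These 4 tissues had log2 ratios between -0.01 and 0.06. AMs, the macs with the highest WT level, had 491 CPM in WT and 343 CPM in Zeb2KO cells, a log2 ratio of -0.52; the median gene of the AM pair was at -0.31, and 32.5% of the genes considered there had a lower ratio.

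Of the inflammasome genes, Nlrp3 (chr11:59541568-59566956, plus strand) was called in CMs alone, with 37.7 CPM in WT and 85.8 CPM in Zeb2KO cells, 2.28-fold higher (log2 ratio 1.17). Microglia had 36.6 and 58.7 CPM (log2 ratio 0.67) and SMs 59.8 and 72.8 CPM (log2 ratio 0.28). AMs, with the highest WT level, had 142 and 146 CPM (log2 ratio 0.04, and -0.0034 without the 5% of cells with most UMIs).

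In KCs the direction depended on the control: Nlrp3 was at 46.1 CPM in Zeb2KO cells, above the 37.1 CPM of Zeb2fl/fl and below the 52.2 CPM of Nr1h3fl/fl controls. Among WT macs CMs, KCs and microglia did not differ by more than the 2 control KC libraries. Casp1 (chr9:5298517-5307265, plus strand) was at 52.2 and 57.0 CPM in WT and Zeb2KO microglia, 58.7 and 58.2 CPM in CMs, 33.9 and 41.7 CPM in AMs, and 34.3 and 45.6 CPM in SMs, with log2 ratios of -0.01 to 0.40. Its widest gap in the liver lay between the controls, 107 CPM in Zeb2fl/fl and 69.8 CPM in Nr1h3fl/fl KCs (log2 ratio -0.62), with Zeb2KO KCs at 94.4 CPM between them, and the steps from WT CMs to microglia, SMs and AMs were each smaller than that gap.

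Ripk3 (chr14:55784995-55788865, minus strand), the kinase that phosphorylates MLKL, was the only necroptosis gene called. In AMs it was at 3.35 CPM in WT (interval 2.70 to 4.11, from 92 UMIs) and 23.8 CPM in Zeb2KO cells (interval 22.2 to 25.4), 7.09-fold higher (log2 ratio 2.51). KCs, the WT macs with the highest level, had 50.3 CPM in Zeb2fl/fl, 34.6 CPM in Nr1h3fl/fl and 87.5 CPM in Zeb2KO cells; the log2 ratio was 0.79 over the first control and 1.32 over the second, and the controls differed by 0.53.

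The other tissues showed little: 9.15 and 6.99 CPM in microglia, 20.3 and 24.5 CPM in CMs, and 26.7 and 25.7 CPM in SMs. WT SMs and WT CMs differed by less than the 2 control KC libraries. Mlkl (chr8:111311797-111338177, minus strand), the executioner, reached 20 CPM only in KCs, with 28.8 CPM in Zeb2fl/fl, 24.6 CPM in Nr1h3fl/fl and 24.5 CPM in Zeb2KO cells. SMs held 12.5 and 13.9 CPM and CMs 3.15 and 3.52 CPM, while WT and Zeb2KO microglia gave 5 and 9 UMIs (0.41 and 0.56 CPM).

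AMs, in which Ripk3 was higher, had 5.47 CPM of Mlkl in WT (interval 4.63 to 6.42) and 1.67 CPM in Zeb2KO cells (interval 1.28 to 2.15), 3.27-fold lower, at a level under the minimum for a call. Casp8 (chr1:58795374-58847503, plus strand) and Ripk1 (chr13:34002363-34037147, plus strand) had log2 ratios of -0.25 to 0.09 and -0.52 to 0.02. Casp8 was at 159 and 134 CPM in WT and Zeb2KO microglia, 65.0 and 63.1 CPM in CMs, 117 and 106 CPM in AMs, 84.3 and 89.8 CPM in SMs, and 109, 116 and 102 CPM in Zeb2fl/fl, Nr1h3fl/fl and Zeb2KO KCs. Ripk1, the upstream kinase, was lowest relative to WT in AMs, at 58.2 and 40.2 CPM, and stood at 28.9 to 29.4 CPM in microglia, 38.2 to 38.6 CPM in CMs, 44.3 to 54.9 CPM in KCs and 61.4 to 70.4 CPM in SMs.

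By a size rule, a log2 ratio of (CPM + 1) of at least 1 with 20 CPM or more in the higher library, 3 of the 8 members considered were called higher in Zeb2KO microglia (Il1a, Il1b and Il1rn), against 4.31% of the 5920 genes considered. CMs gave 2 of 9 (Il1rn and Nlrp3) against 1.07%, AMs 3 of 9 (Il1a, Il1b and Ripk3) against 4.37%, SMs 1 of 9 (Il1rn) against 2.4%, and KCs 0 of 10 against 3.49%. The SM call was lost (0 calls) with TMM or DESeq2 factors, a floor of 50 CPM, no removal of other cell types, or without the 5% of cells with most UMIs, and Il1rn in microglia was lost (2 calls left) with either scaling or the 50 CPM floor. Over the Nr1h3fl/fl control, 1 of the 10 members (Ripk3) was called higher in Zeb2KO KCs, against 4.4%. In that comparison 13 of the 13 early-response genes were called higher (median log2 ratio 1.70), and between the 2 controls 5 of the 11 considered were called lower in Nr1h3fl/fl cells (median -0.74); their part in the call was not tested.

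No member was called lower in any of these comparisons, in which 4.12% (microglia), 0.526% (CMs), 7.26% (AMs), 0.849% (SMs), 1.26% (KCs) and 4.38% (KCs over Nr1h3fl/fl) of the genes considered were. Between the 2 control KC libraries 0 of 10 members were called, against 0.521% of genes higher and 0.844% lower in Nr1h3fl/fl cells. The median log2 ratio of the members considered was 0.40 for microglia, 0.26 for CMs, -0.01 for KCs, 0.28 for AMs and 0.06 for SMs. Over all genes considered the medians were -0.09, 0.05, 0.01, -0.31 and -0.04. With the members under 20 CPM included, the medians of the 10 were 0.13, 0.19, -0.01, 0.16 and 0.08. TMM scaling moved the AM ratios up by 0.27 and the other tissues by under 0.1. In AMs it brought Casp8 from -0.14 to 0.13.

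**Figure D2:**
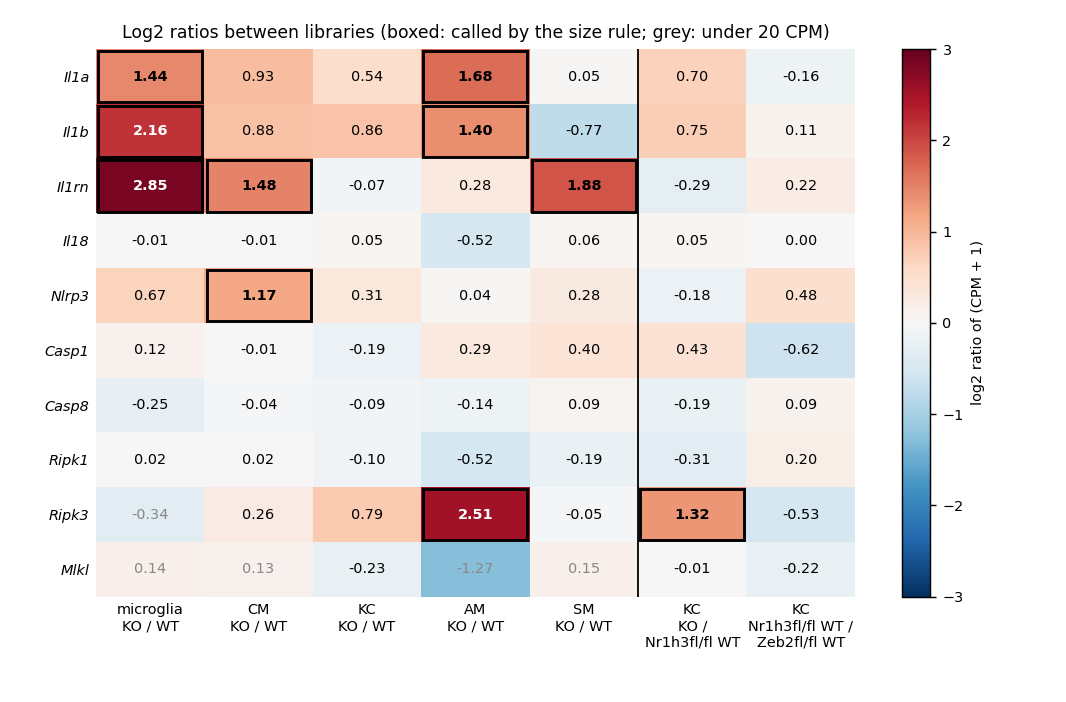
Log2 ratios of (CPM + 1) for the 10 genes (rows) in the 5 Zeb2KO over WT comparisons, in Zeb2KO over Nr1h3fl/fl WT KCs and between the 2 control KC libraries (columns); colour and printed number give the ratio, boxes mark genes called by the size rule, and grey numbers mark genes under 20 CPM in both libraries. Boxes lie on Il1a and Il1b in microglia and AMs, on Il1rn in microglia, CMs and SMs, on Nlrp3 in CMs and on Ripk3 in AMs and in KCs over the Nr1h3fl/fl control.

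The 5 tissue pairs are the only replication of genotype, so the same sums were tested across tissues with edgeR's quasi-likelihood test and tissue as a block. No gene passed an adjusted p of 0.05 (0.0% of 13937 genes), and no member did. Il1a had a log2 fold change of 1.003 ± 0.283 (SE, adjusted p = 0.294 by edgeR; higher in 5 of 5 tissues with the SM exception above), Nlrp3 0.56 ± 0.15 (adjusted p = 0.283 by edgeR; 5 of 5, 2 of which, AMs and KCs, turned under an alternative) and Il1rn 1.37 ± 0.48 (adjusted p = 0.380 by edgeR; 4 of 5). Before adjustment 3 of the 10 members (Il1a, Il1rn and Nlrp3) were under 0.05, against 11.3% of all genes.

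Il1b had a log2 fold change of 0.99 ± 0.42 (adjusted p = 0.441 by edgeR), which was 1.40 without the SM pair and 0.67 without the microglia pair. For Ripk3 the value was 0.69 ± 0.48 (adjusted p = 0.603 by edgeR), and 0.19 without the AM pair. Those of Il18, Casp1, Casp8, Ripk1 and Mlkl lay between -0.26 and 0.19. DESeq2 called 2.74% of 13120 genes, among them the members Il1a (adjusted p = 0.0295) and Il1rn (adjusted p = 0.0474). With tissue as a block, these p-values weigh the mean genotype difference against its spread from tissue to tissue. That spread can hold real differences between tissues and between Cre lines as well as technical ones. Nothing in the labels says which libraries share animals.

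Counted per cell, after each cell was thinned to 1000 UMIs, the differences were in the share of cells with a UMI as well. Il1b was counted in 4.41% of WT and 17.7% of Zeb2KO microglia, 26.7% and 46.2% of AMs, 34.2% and 42.8% of CMs, and 12.1%, 13.8% and 20.01% of Zeb2fl/fl, Nr1h3fl/fl and Zeb2KO KCs. In SMs it was counted in 44.3% of WT and 29.8% of Zeb2KO cells. Free RNA could be gauged in the spleen, the tissue with at least 50 lymphoid cells set aside in each library: 11.04% of 444 lymphoid cells in the WT and 9.77% of 256 in the Zeb2KO library had a UMI of Il1b.

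The median depth before thinning was 2144 and 2684 UMIs in these SMs and 2013 and 2623 UMIs in all the lymphoid cells, and 270 WT SMs under 1000 UMIs were left out. By the same measure Casp1 in WT SMs was counted in 2.82% of cells and 3.15% of lymphoid cells. Whether lymphoid cells make Casp1 themselves was not tested, so their share cannot be read as free RNA alone. Il1rn in WT SMs was close to its lymphoid share (0.317% and 0.225%). In Zeb2KO SMs Il1rn was counted in 1.45% of cells and in 0 of 256 lymphoid cells, which allows a share of up to 1.17%. Il1a was counted in 15.5% and 30.9% of WT and Zeb2KO microglia and in 6.08% and 16.1% of AMs, Il1rn in 6.69% and 17.5% of CMs, and Ripk3 in 0.301% and 2.15% of AMs and 4.90%, 3.47% and 7.95% of Zeb2fl/fl, Nr1h3fl/fl and Zeb2KO KCs.

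Before thinning, Il1b in WT microglia came from few cells: 251 of 2814 cells held all 1638 UMIs, and 43 of them held 10 or more. In Zeb2KO microglia 1220 of 3127 cells held a UMI, and the 10% of cells with most Il1b held 83.5% of the 9729 UMIs. Il1b was spread more widely in AMs, where the top 10% of cells held 51.8% of its UMIs in the WT and 46.2% in the Zeb2KO library. In Zeb2KO microglia, Il1b was counted in 30.9% of the cells with and 11.8% of those without a UMI of Il1a, and in Zeb2KO CMs in 73.4% and 41.7%.

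**Figure D3:**
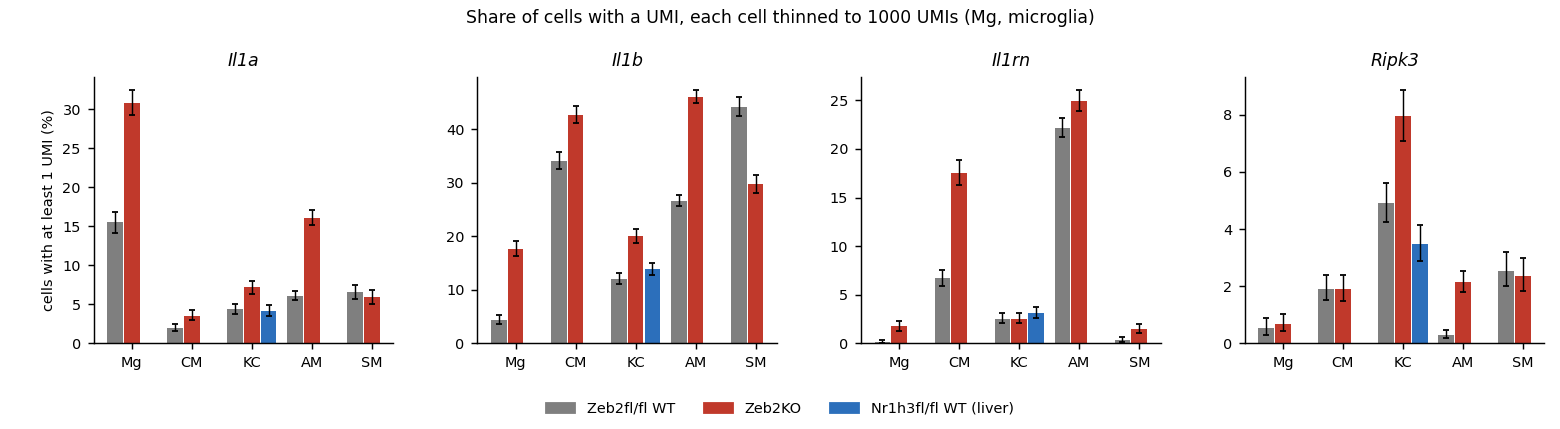
Share of cells (%) with at least 1 UMI of Il1a, Il1b, Il1rn or Ripk3 after thinning each cell to 1000 UMIs, by tissue (Mg, microglia) and genotype; bars are 1 library each and error bars are exact binomial 95% intervals (counting error only). For Il1b the share runs from 4.41% to 17.7% in microglia and from 44.3% down to 29.8% in SMs.

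Within the Zeb2KO libraries, cells were also divided by a UMI of the surface marker genes with which the study followed Zeb2KO macs. Since CMs and SMs were sorted as SiglecF-negative, their cells with a Siglecf UMI are ones that passed a gate against that protein. Il1b was at 3325 CPM in the 477 CMs with and 1115 CPM in the 3125 CMs without a UMI of Siglecf or Ms4a1. In KCs divided by the same genes (1889 and 1770 cells) it was at 415 and 195 CPM, and in AMs divided by Epcam or Cd101 (4301 and 1923 cells) at 1279 and 604 CPM.

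In KCs and AMs the cells without these markers were nearer to the WT library, 195 CPM beside 172 CPM in WT KCs and 604 CPM beside 426 CPM in WT AMs. In the spleen, where Il1b was lower in the Zeb2KO library, the 129 SMs with a UMI of Siglecf or Epcam had 1326 CPM, against 583 CPM in the 2766 SMs without one and 1074 CPM in WT SMs. In microglia, divided by Siglecf or Cd101, the 2658 cells with and 469 cells without had 606 and 573 CPM, both far from the 134 CPM of the WT library.

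The same division in WT libraries, which hold few such cells in CMs, KCs and SMs, gave Il1b at 1185 CPM in the 28 CMs with and 770.2 CPM in those without the markers, and at 248.8 and 112.7 CPM in microglia (382 and 2432 cells). In WT AMs (935 and 6036 cells) it was at 389 and 433 CPM, and in WT KCs (43 and 3775 cells) at 132 and 173 CPM. WT microglia and CMs with a marker UMI thus also had more Il1b than those without, whereas WT AMs had less and the 2 intervals of WT KCs overlapped.

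Ripk3 was at 27.8 and 10.0 CPM in AMs with and without the markers, at 105 and 67.3 CPM in KCs, and at 33.6 and 22.9 CPM in CMs, whereas the intervals overlapped in SMs (19.2 and 26.2 CPM) and microglia (7.3 and 4.6 CPM). Il18 ran the other way in AMs (315 and 440 CPM), KCs (97.2 and 143 CPM) and SMs (148 and 238 CPM), with overlapping intervals in microglia (59.6 and 57.1 CPM) and CMs (33.3 and 35.0 CPM). Il1rn was at 558 and 224 CPM in CMs and 59.2 and 19.5 CPM in SMs, but at 19.3 CPM (interval 17.1 to 21.7) in microglia with and 32.9 CPM (interval 25.4 to 41.9) in those without the markers, and Nlrp3 at 140 and 76.8 CPM in CMs. Cells with a marker UMI were deeper. The medians were 6418 against 3853 UMIs in AMs, 6145 against 5216 in KCs, and 9024 against 8261 in CMs. They were 3823 against 2636 in SMs and 5061 against 4125 in microglia. WT CMs with and without a marker UMI had medians of 12820.5 and 8810.5 UMIs. The early-response genes summed to 14027 CPM in Zeb2KO CMs with and 9385 CPM in those without a marker UMI. Their sums were 3257 and 2149 CPM in KCs, 5742 and 5183 CPM in AMs, and 5130 and 5606 CPM in SMs. In microglia the sums were 18884 and 19212 CPM. The part of depth and of these genes in the differences was not tested.

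**Figure D4:**
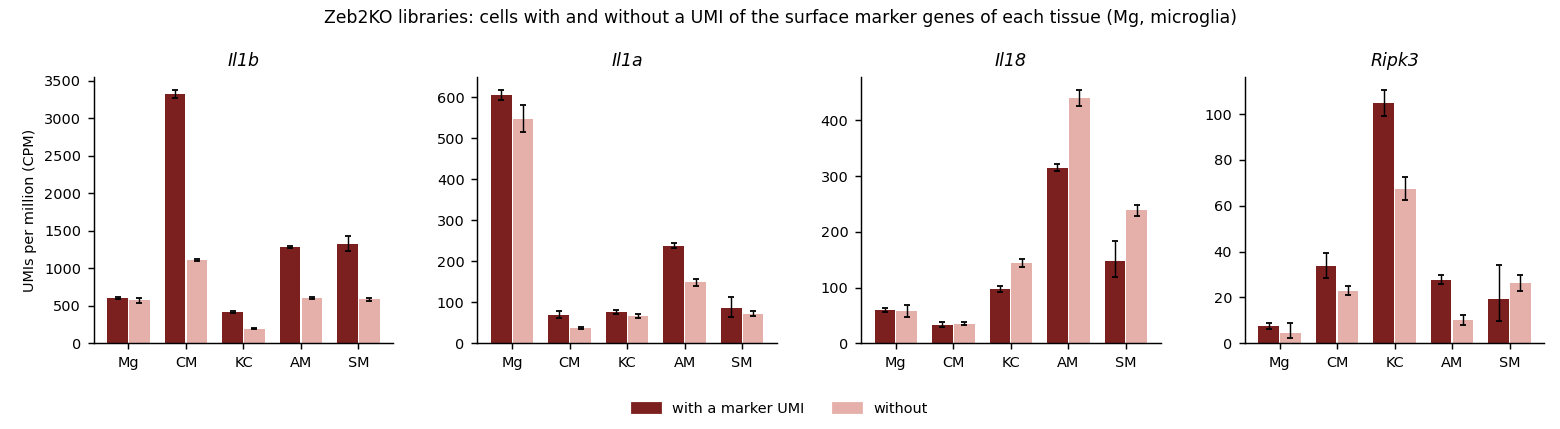
Levels (CPM, linear axes from 0) of Il1b, Il1a, Il18 and Ripk3 in Zeb2KO cells with (dark) and without (light) a UMI of the surface marker genes named for each tissue (Mg, microglia); error bars are exact Poisson 95% intervals over the pooled UMIs of 1 library. In KCs, AMs, CMs and SMs the dark Il1b bar is above the light one, and in KCs, AMs and SMs the dark Il18 bar is below it.

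Other genes of the pathway are given by list, beside the shares of all genes called stated above for each tissue. Il1f9, which encodes the agonist interleukin-36γ, had 0 UMIs in WT AMs and 4213 UMIs (114 CPM) in Zeb2KO AMs, at least 1040-fold higher against a floor of 3 counts in the WT library; the list of 6 further interleukin-1 family ligands that holds Il1f9 summed to at most 0.4 CPM in any WT library, and to 114, 4.0, 16.8 and 15.6 CPM in Zeb2KO AMs, CMs, KCs and SMs, and only Il1f9 in AMs reached 20 CPM. Il1r2, the decoy receptor, was called higher in CMs (20.5 and 89.3 CPM) and in KCs, with 1 UMI in Zeb2fl/fl WT, 2 UMIs in Nr1h3fl/fl WT and 928 UMIs in Zeb2KO cells; the ratio over the Zeb2fl/fl control was 895 with a counting interval of 160.2 to 35378. Of 9 receptor and inhibitor genes, 0 to 3 per tissue reached 20 CPM in a library; Il18bp (12.3 and 28.7 CPM in CMs), Il1rl2 (27.4 and 61.4 CPM in AMs) and Il18r1 (0.219 and 28.9 CPM in AMs) were also called higher, and none was called lower in any tissue. Il18bp, which encodes the secreted inhibitor of interleukin-18, had its highest level in KCs and there ran the other way, at 755 CPM in Zeb2fl/fl WT, 553 CPM in Nr1h3fl/fl WT and 449 CPM in Zeb2KO cells. The log2 ratio of -0.75 over the Zeb2fl/fl control missed the size rule, and the 2 controls differed by -0.45. In SMs it was at 69.6 and 97.4 CPM in WT and Zeb2KO cells.

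Downstream of the receptor, Nfkbia, the inhibitor of NF-kB that NF-kB itself induces, was called higher in microglia (1036 and 2570 CPM), the 1 gene called of 9 considered there, against 4.31% of all genes higher in that tissue; of the 12 signalling genes in the list, 8 to 11 were considered in each other tissue and none was called. Of 16 inflammasome and pyroptosis genes, 8 to 10 were considered per tissue: Casp4 was called higher in microglia (67.5 and 138 CPM) and Naip5 lower in AMs (52.8 and 23.1 CPM), though TMM scaling brought Naip5 to a log2 ratio of -0.90, short of a call. None of the 14 genes of the necroptosis inputs and death receptor complex was called in any tissue, with 10 or 11 of them considered. Among 14 apoptosis genes, 9 or 10 were considered per tissue. Pmaip1, which encodes NOXA, was called higher in microglia (41.7 and 450.3 CPM) and KCs (27.6 and 112 CPM) and Bid in KCs (12.4 and 27.1 CPM), that is, 1 of 9 considered in microglia and 2 of 9 in KCs against 4.31% and 3.49% of all genes, while Bcl2l11, which encodes BIM, was called lower in microglia (53.4 and 25.0 CPM) and AMs (107 and 52.2 CPM), with log2 ratios of -0.98 and -0.75 after TMM scaling, both short of a call.

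The 11 libraries come from 5 tissues and differ in depth, so likeness across them also takes in differences between tissues. Across these libraries, the genes with the pattern most like each member were found by Pearson's r of log2(CPM + 1) among 8005 genes, as a description. For Il1a these were Crot (0.96), Zeb1 (0.94) and Nfkbil1 (0.93), and for Il1b Avpi1 (0.90), Gm6377 (0.88) and Cd69 (0.87). Il1rn was most like Fas (0.94), Myo1g (0.93) and Snrnp25 (0.93), Nlrp3 like Rab11fip1, Ero1l and Riok3 (0.94 each), and Ripk3 like Dnajc15 (0.91), AB124611 (0.91) and Hk3 (0.88). Il18 stood with Abcg1 (0.99), Stk38 (0.98) and Hipk2 (0.97), Casp1 with Dcxr (0.96), Ogg1 (0.93) and Eva1b (0.93), and Casp8 with Frmd4a (0.96), Frg1 (0.945) and Srsf5 (0.94). Ripk1 was most like Ube3b (0.99), Rps12-ps3 (0.98) and Pabpc1 (0.98), and Mlkl like Spop (0.99), Pilra (0.99) and Idnk (0.97). Among the members themselves, r was -0.04 between Il1a and Il1b, 0.50 between Il1b and Il1rn, 0.70 between Ripk3 and Mlkl and 0.24 between Ripk1 and Ripk3.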

How the data were processed

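Macs were profiled by 10x single-cell RNA-seq in 11 libraries. According to the methods of the study, the authors aligned reads to mm10 and counted UMIs per gene with Cell Ranger; the deposited tables hold raw UMI counts per gene and cell, with no normalization. KCs and AMs were sequenced on another instrument than the other macs, so tissue and instrument cannot be told apart, whereas both genotypes of a tissue share it. The sorts differed by tissue. CD64 and F4/80 were required in all; KCs also had to carry Clec4F, AMs CD11c and SiglecF, and microglia intermediate CD45, while CMs and SMs had to lack Ly6C, Ly6G and SiglecF.

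Barcodes beyond 3 median absolute deviations (log10 UMIs, log10 genes, or above in mitochondrial percent) and cells with at least 3 markers of another cell type were left out. No doublet caller was run; leaving out the 5% of cells with most UMIs was an alternative. Counts were summed per library and scaled to CPM, with log2 ratios of (CPM + 1). The 5 tissue pairs were tested with edgeR 4.0.16 (filterByExpr, TMM, quasi-likelihood, tissue block, Benjamini-Hochberg adjustment over all genes tested), and with DESeq2 1.42.0 as the alternative. Only the edgeR fit was also run on simulated data. R 4.3.3 and Python 3.11.15 were used.

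Beyond the 10 members, the genes named from the pathway lists passed the size rule in a tissue, and for likeness the 3 with the highest r were named. Cell type markers, early-response genes, Zeb2 and Il1bos were named whether or not they passed the size rule. The members and lists were chosen with earlier results of these data known. Intervals cover counting error only. Neutrophil, monocyte and early-response lists were followed as other sources of signal. The neutrophil list also served to set cells aside. The remaining marker lists served only for that: B, T or NK, plasma, plasmacytoid dendritic, endothelial, fibroblast, erythroid and mast cells. Hepatocyte markers summed to at most 127 CPM, in KCs, and lung epithelial markers to at most 95.2 CPM, in AMs. In microglia the hepatocyte list summed to 1.22 CPM in WT and 60.7 CPM in Zeb2KO cells. Of these genes, Ttr was at 0.41 CPM in WT and 60.1 CPM in Zeb2KO microglia, and its source was not tested. Promoters are RefSeq sequences of GRCm38.p6 and gene positions are from GENCODE M21.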

Additional observations from a re-analysis of the deposited data

Results flagged for a closer look

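Il1b was flagged because the tissues went in opposite directions under the same contrast. The log2 ratio of Zeb2KO over WT was 2.16 in microglia and 1.40 in AMs, but -0.77 in SMs. With 1 library per genotype in each tissue, the difference between tissues was not tested. The methods give Itgax-cre for the AMs and Fcgr1-cre for microglia and SMs. A UMI of the surface marker genes of the tissue was in 85.0% of Zeb2KO microglia, 69.1% of Zeb2KO AMs and 4.46% of Zeb2KO SMs. Zeb2KO SMs with one had Il1b at 1326 CPM and those without at 583 CPM, beside 1074 CPM in WT SMs. The part of the Cre line and of these shares was not tested. The sign held in each of these 3 tissues under every alternative run, with ranges of 2.11 to 2.48 in microglia, 1.32 to 1.69 in AMs and -0.85 to -0.66 in SMs (leaving aside the larger pseudocount). Early-response genes were lower in Zeb2KO SMs (summed level 9802 CPM in WT and 5576 CPM in Zeb2KO cells), lower in sum in Zeb2KO microglia (24389 and 18924 CPM), and mixed in AMs, where the sums were 6017 and 5617 CPM but 4 of the 13 genes were called higher (Ier3, for one, at 33.2 and 251 CPM) and 2 lower (Egr1, for one, at 341 and 71.5 CPM); their part in the result was not tested.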

How the results depend on the processing

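Of 410 recomputed log2 ratios of single members, 382 moved by less than 0.25, 28 moved further, and no called ratio changed sign. The floors of 5 and 50 CPM change only which genes are called, so the ratios counted under them could not move. In AMs the scaling factors of TMM and DESeq2 raised all ratios by about the same amount. The number of members called in KCs was 0, and 1 (Ripk3) with the Nr1h3fl/fl library as the control. In SMs the 1 call (Il1rn) became 0 with a floor of 50 CPM, TMM factors, DESeq2 size factors, no removal of other cell types, or the 5% of cells with most UMIs left out, since its level lies near the floor. In microglia the 3 calls became 2, again without Il1rn, with the 50 CPM floor and with both scaling factors. CMs gained Il1a (3 calls) without removal of other cell types. AMs had 4 calls with a floor of 5 CPM, where Mlkl was called lower, and 2 with a floor of 50 CPM, where Ripk3 was lost. Across tissues, edgeR called 0 members in the reported fit and in all its alternatives, with 0 to 1 of all genes passing, and DESeq2 called 2 members and 359 of all genes; the cause was not tested. Tissue was a block in every fit, and no replicate numbers in the labels pair samples in another way. Shares of cells moved with the thinning depth in 212 of 220 recomputed values. Mlkl, Il1rn in microglia and SMs, and Ripk3 in microglia and AMs rest on few UMIs.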

Other observations

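Pairs of members were also compared cell by cell. In WT AMs, after thinning to 1000 UMIs, Il18 was counted in 33.9% of the cells with and 36.8% of those without a UMI of Casp1, and in Zeb2KO AMs in 30.3% and 29.5%. In Zeb2KO CMs, Il1rn was counted in 27.6% of the cells with and 10.0% of those without a UMI of Il1b; in WT CMs these shares were 9.71% and 5.12%. In Zeb2KO AMs the shares were 26.5% and 23.7%. In Zeb2KO CMs Il1b was counted in 72.3% of the cells with and 40.2% of those without a UMI of Nlrp3. In Zeb2KO KCs, which had the highest Ripk3 level, Il1b was counted in 19.6% of the cells with and 20.04% of those without a UMI of Ripk3. Each comparison is within 1 library, so no test was made.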
